A study of Mus musculus with 8 samples.

Results

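The genes described here are 38 genes of fatty acid uptake, storage and oxidation, measured in whole-tissue RNA from mouse heart. They were chosen by name, from the enzymes and carriers of the pathway, and each name was matched to a gene identifier of the deposited count table. All 38 were found among the 33105 genes listed, and all 38 passed the filter on low counts that left 16603 genes to test. The hearts came from C57BL/6J mice in 2 groups. The MR group had undergone minimally invasive surgery that makes the mitral valve leak, which loads the heart with extra volume, and the Sham group is labelled as the surgical control. Each group has 4 libraries, and the stated aim was to explore signalling in volume overload hypertrophy and to find genes tied to it. The sources used here do not give the part of the heart taken, the age and sex of the mice, their feeding state, the hour of collection or the time since surgery. They also leave unsaid whether each library is a different animal, so every p-value refers to the spread among these 8 libraries.

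The heart draws most of its energy from long-chain fatty acids. Lipoprotein lipase releases them from circulating triglyceride, CD36 and transport proteins carry them into the cardiomyocyte, and acyl-CoA synthetases trap them as CoA esters. The carnitine palmitoyltransferases move the acyl group into the mitochondrion, where each turn of beta-oxidation passes through a dehydrogenase, a hydratase, a second dehydrogenase and a thiolase. Surplus acyl groups are stored as triglyceride in lipid droplets. PPAR-alpha, a nuclear receptor that binds fatty acids, drives transcription of many of these genes, most of all during fasting.

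PPAR-alpha binds DNA as a heterodimer with RXR at a pair of AGGTCA sites separated by a single base. Promoter sequence before the start site is shown for the pair of genes that encode the trifunctional protein, for the member with the lowest p-value, Plin5, and for Pdk4 and Ucp3, the members that varied most between MR libraries. The sequences are from RefSeq (GRCm38.p6), run 5′ to 3′ on the strand of the gene named, and end where the annotated gene begins. Capitals mark AGGTCA and matches to AGGTCANAGGTCA with up to 2 mismatches.
Hadhb (chr5:30155163-30155247, plus strand): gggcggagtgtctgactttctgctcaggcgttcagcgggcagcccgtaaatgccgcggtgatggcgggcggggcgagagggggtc
Plin5 (chr17:56117597-56117798, minus strand): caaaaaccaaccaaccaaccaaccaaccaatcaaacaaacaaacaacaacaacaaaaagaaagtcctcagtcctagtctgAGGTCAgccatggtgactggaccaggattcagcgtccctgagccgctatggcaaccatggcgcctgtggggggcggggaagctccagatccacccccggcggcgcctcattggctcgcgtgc
Pdk4 (chr6:5496310-5496528, minus strand): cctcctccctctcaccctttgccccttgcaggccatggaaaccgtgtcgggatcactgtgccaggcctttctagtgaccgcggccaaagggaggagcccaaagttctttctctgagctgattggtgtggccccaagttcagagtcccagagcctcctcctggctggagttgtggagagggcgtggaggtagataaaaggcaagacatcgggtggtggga
Ucp3 (chr7:100472741-100472989, plus strand): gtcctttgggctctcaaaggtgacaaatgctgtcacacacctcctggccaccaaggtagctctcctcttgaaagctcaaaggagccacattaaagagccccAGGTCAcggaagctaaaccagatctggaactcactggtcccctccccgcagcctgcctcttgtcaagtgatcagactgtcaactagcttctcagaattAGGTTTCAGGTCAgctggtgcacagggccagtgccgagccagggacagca

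Hadha and Hadhb lie head to head on chromosome 5 and are transcribed away from each other, with 272 bases between their RefSeq start sites. The Hadhb sequence above is the 85 bases between the 2 annotated gene models, whose ends lie closer together than these start sites. Its GC content is 69.4%. The median promoter in the same table has 52.4%, over the 250 bases before the start, a longer stretch. The table held promoters for 31 of the 38 genes. Within the 250 bases before the start, on both strands, AGGTCA occurred in 7 of these 31 genes (22.6%), namely Acadm, Cd36, Ucp3, Echs1, Acadvl, Plin5 and Cpt1a, and in 15.8% of all 27025 genes of the table. The exact repeat AGGTCANAGGTCA was in none of the 31 and in 0.0407% of all genes. With up to 2 mismatches it was found in Cd36, Ucp3, Echs1 and Etfa (12.9% of the 31, against 3.72% of all genes), and these matches overlap the AGGTCA sites of Ucp3 and Echs1. TCAAGGTCA, the element of the estrogen-related receptors, was in none of the 31 and in 0.422% of all genes. These are matches of letters in a short window and do not show binding.

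Levels are given in CPM, read counts divided by the TMM-scaled library size, and values after ± are standard deviations (n = 4). The length of a gene was taken as the union of all its annotated exons. Per kilobase of this length, the fatty acid binding protein Fabp3 was the most abundant of the 38 transcripts, with a Sham mean of 3200.2 CPM per kb. Lpl and Cd36 followed at 619 and 599 CPM per kb, then the dehydrogenase Acadl at 515 and the thiolase Acaa2 at 488. The lowest were Acot1 at 3.29, Cpt1b at 3.05 and Acad10 at 1.22 CPM per kb. In MR the top 5 genes kept this order, with 3155, 546, 529, 454 and 392 CPM per kb. By this length Lpl and Cd36, neighbours in the order, differed by less than the spread of Lpl between Sham libraries. The exon union has 10478 bases for Lpl and 3590 for Cd36, and their longest coding transcripts have 4115 and 3399. For Hadhb the lengths are 6595 and 2048 bases, and for Acadm 3913 and 2047. The near tie and the order of the genes after Fabp3 thus depend on the length used. Even the least covered member, Cpt1b, had at least 215 counts in every library, and Acad10, at 264 to 404 counts, had a spread between libraries (6.96% in Sham and 4.79% in MR, as coefficients of variation) of the order of counting error.

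None of the 38 genes passed the threshold, an adjusted p of 0.05 in the edgeR quasi-likelihood test over all genes, which 0.458% of genes did (0.217% lower and 0.241% higher in MR). The direction was nevertheless lopsided. The log2 difference of MR from Sham was negative for 35 of the 38 genes, where 49.6% of all genes tested were negative, and positive for Pdk4, Acad11 and Acot13 only. The median of the 38 was −0.18, with a range of −0.69 to 0.36, and the median of all genes was 0.002. At an unadjusted p under 0.05, 19 members were lower in MR and 0 were higher, where 7.29% and 7.78% of all genes were. In 3 members, Slc27a1, Hadhb and Plin5, all 4 MR values lay under all 4 Sham values, as they did in 3.91% of all genes. The 38 genes are members of one pathway measured in the same 8 libraries, so these counts describe them and are not independent tests.

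**Figure D1:**
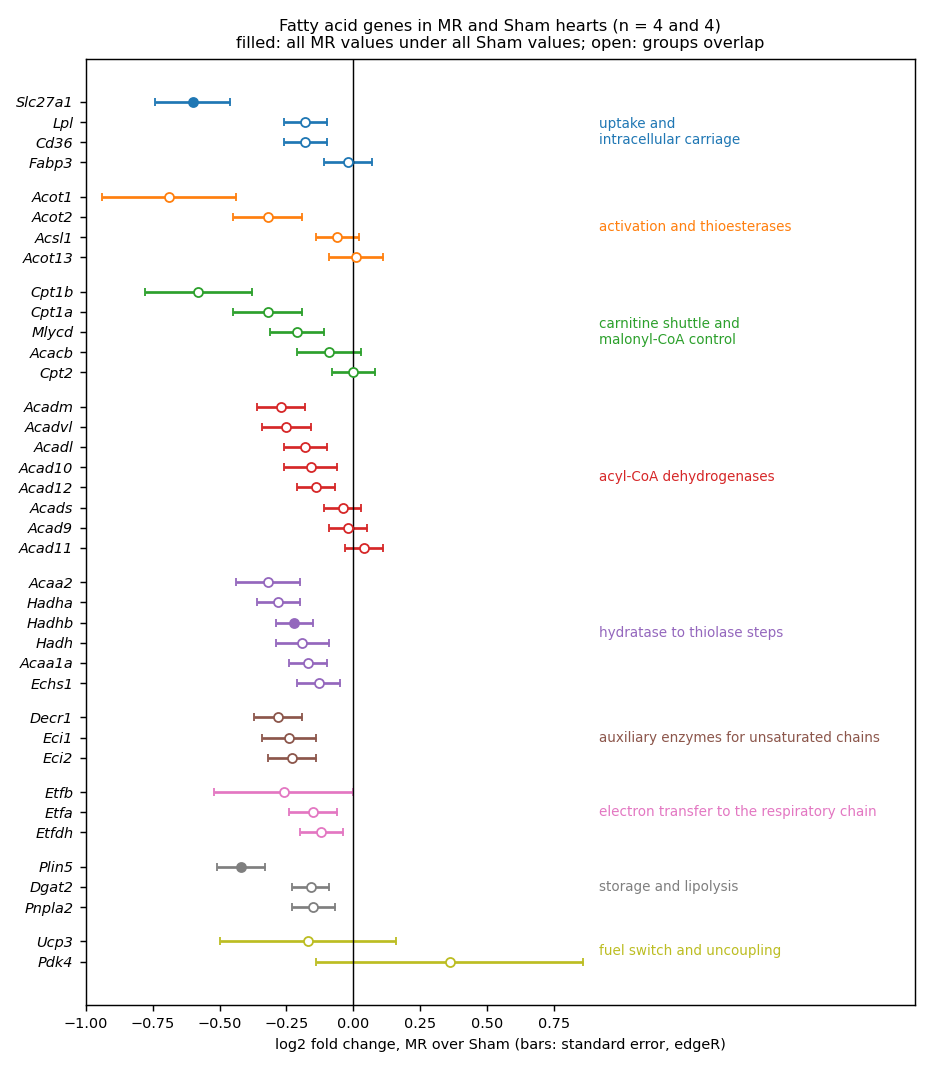
Log2 difference of MR from Sham (x axis) with its standard error for each of the 38 genes, ordered by role in the pathway. Filled points are the 3 genes whose 4 MR values all lie under the 4 Sham values (Slc27a1, Hadhb and Plin5). Most points lie left of 0, and Pdk4 has the widest error.

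Other settings moved the count of genes that passed. It was 8 with no filter on low counts, where 419 of 30605 genes (1.37%) were called lower. With DESeq2 it was 5, where 333 of 16603 genes (2.01%) were called lower. These 2 shares have unlike bases. It was 1, Plin5, both with limma-voom and quality weights (1.22%) and after removal of a length trend (0.719%). Leaving out Sham replicate 3 gave 7 genes, Acadm, Decr1, Hadha, Slc27a1, Acadvl, Plin5 and Acaa2, where 2.32% of all genes were called lower.

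The 4 genes of uptake and carriage had a median log2 difference of −0.18, and all 4 were negative. Slc27a1 (ENSMUSG00000031808, chr8:71568882-71587302 in GRCm38) encodes fatty acid transport protein FATP1, which couples uptake to activation. It was at 143, 130.1, 105 and 165 CPM in the Sham libraries and at 103, 82.3, 71.9 and 100 CPM in the MR libraries, each in the order of replicates 1 to 4, as in all such lists that follow. Its lowest Sham value, in replicate 3, was just above its highest MR value, in replicate 1, and the groups did not overlap. The mean was 136 ± 24.9 CPM in Sham and 89.3 ± 14.8 CPM in MR, 1.52 times lower. The log2 difference was −0.60 (SE 0.14), with an adjusted p of 0.0851 by edgeR. With any single library left out it ran from −0.71 to −0.49 and the adjusted p from 0.0065 to 0.218.

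Lpl, the lipase on the capillary wall that frees fatty acids from lipoproteins, was at 6941, 6709, 5792 and 6520 CPM in Sham and at 5666, 6024, 5379.8 and 5830.2 CPM in MR. The Sham replicate 3 value fell among the MR values and the other 3 Sham values lay above them. Its log2 difference was −0.18 (SE 0.08, adjusted p = 0.301). Cd36, the main fatty acid translocase of the cardiomyocyte membrane, was at 2128, 2315, 2006 and 2148 CPM in Sham and at 1952, 1800, 1834 and 2010 CPM in MR. Again only Sham replicate 3 lay within the MR range, by a margin of a few CPM, and the log2 difference was −0.18 (SE 0.08, adjusted p = 0.285). Fabp3, which carries fatty acids through the cytosol, differed by −0.02 (SE 0.09, adjusted p = 0.945), with 2634 ± 285 CPM in Sham and 2597 ± 165 CPM in MR. Of the Fabp3 transcript windows of 100 bases 21.7% also occur in Fabp3-ps1. The uptake values were uneven, from −0.60 for Slc27a1 to −0.02 for Fabp3.

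**Figure D2:**
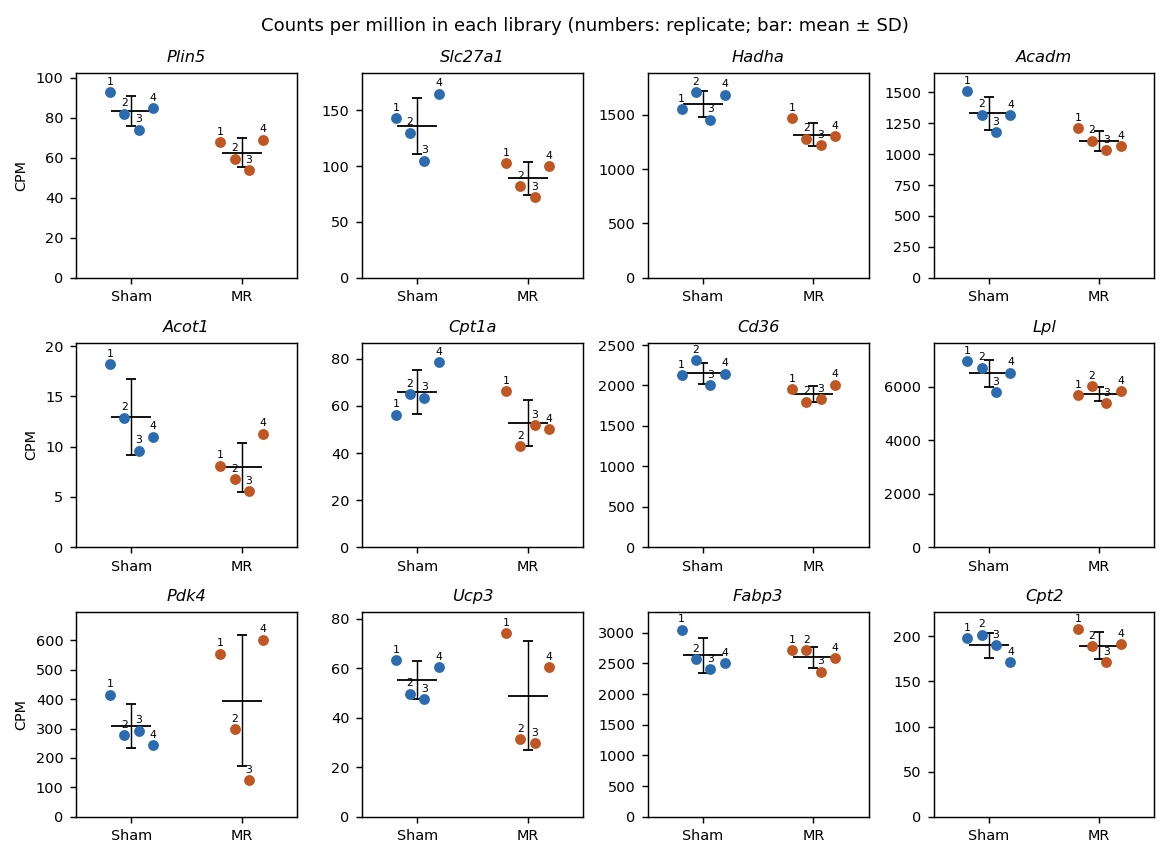
CPM of 12 members in each library (points, one per replicate), with the group mean and SD (bars), each panel on its own axis. Plin5 and Slc27a1 separate the groups. In Hadha, Acadm, Cd36 and Lpl 1 or more Sham values, Sham replicate 3 among them, reach the MR range, and Pdk4 spans 126 to 603 CPM within MR.

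Activation and release of acyl-CoA were covered by 4 genes with a median of −0.19. Acsl1, the main acyl-CoA synthetase of the heart, was at 1121, 1228, 1070.1 and 1077 CPM in Sham and at 1207, 993, 1001 and 1113 CPM in MR. Its groups overlapped widely, and the log2 difference was −0.06 (SE 0.08, adjusted p = 0.786). Acot1, a cytosolic thioesterase that hydrolyses long-chain acyl-CoA, had the most negative difference of the 38. It was at 18.2, 12.9, 9.61 and 11 CPM in Sham and at 8.13, 6.75, 5.6 and 11.3 CPM in MR. MR replicate 4 reached the Sham range, while the other 3 MR libraries were under every Sham library. For MR minus Sham the log2 value was −0.69 (SE 0.25, adjusted p = 0.228).

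Acot2, the mitochondrial thioesterase beside Acot1 on chromosome 12, was at 55.4, 52.0, 39.8 and 47.7 CPM in Sham and at 45.2, 35.9, 31.1 and 44.1 CPM in MR. MR replicates 1 and 4 and Sham replicate 3 overlapped, and the log2 difference was −0.32 (SE 0.13, adjusted p = 0.258). These 2 genes share sequence. Of the 100-base windows of the Acot1 transcript 16.5% also occur in Acot2, and 17.1% of those of Acot2 occur in Acot1, so their counts are partly uncertain. Acot13, another thioesterase, differed by 0.01 (SE 0.1), and its sign turned in 4 of the 8 fits that left out a library.

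The carnitine shuttle and its malonyl-CoA control gave 5 genes, all with differences at or below 0 and a median of −0.21. Cpt1a, the liver-type outer membrane palmitoyltransferase, was at 56.3, 65.1, 63.5 and 78.6 CPM in Sham and at 66.3, 43.0, 51.9 and 50.2 CPM in MR. MR replicate 1 exceeded 3 of the 4 Sham libraries, and the other MR libraries lay under all of Sham. On the log2 scale MR differed by −0.32 (SE 0.13, adjusted p = 0.266). Cpt1b, the muscle-type isoform, was at 7.8, 9.47, 9.12 and 14.7 CPM in Sham and at 7.87, 4.76, 7.11 and 7.7 CPM in MR. Sham replicate 4 stood above all other libraries, and the lowest Sham value overlapped MR. The log2 difference was −0.58 (SE 0.2, adjusted p = 0.206), and −0.36 when it was least negative with a library left out.

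The Cpt1b level needs care. An overlapping gene model, Gm44502, which is not among the identifiers of the table, shares 81.4% of the Cpt1b exon bases on the same strand, and 91.1% of the Cpt1b transcript windows occur in it. The sources used here do not say how the authors' counting treated reads that lie in both models. The counts of Cpt1b are therefore only those assigned to it, and its level relative to Cpt1a, 0.14 to 0.188 in Sham and 0.113 to 0.155 in MR before any correction for length, cannot be read as the ratio of the isoforms. On the log2 scale that ratio was −2.70 ± 0.20 in Sham and −2.94 ± 0.21 in MR, with a two-sided exact permutation p of 0.2 (adjusted 0.429 over 5 ratios).

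Cpt2, the inner membrane transferase that completes the transfer, had nearly equal group means. Its mean was 190.3 ± 13.7 CPM (Sham) and 189.9 ± 15.1 CPM (MR), with an adjusted p of 0.993 and an SE of 0.08. Acacb makes the malonyl-CoA that inhibits Cpt1, and Mlycd breaks malonyl-CoA down. Acacb differed by −0.09 (SE 0.12, adjusted p = 0.777) and Mlycd by −0.21 (SE 0.1, adjusted p = 0.325). Their log2 ratio was 2.24 ± 0.43 in Sham and 2.38 ± 0.19 in MR (exact permutation p = 0.714, adjusted 0.893), with Sham replicate 1 lowest at 1.61.

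Among the 8 acyl-CoA dehydrogenases, which take the first step of each turn, the log2 differences ran from −0.27 to 0.04. Acadvl (very long chain) differed by −0.25 (SE 0.09, adjusted p = 0.188), Acadl (long chain) by −0.18 (adjusted p = 0.307) and Acadm (medium chain) by −0.27 (SE 0.09, adjusted p = 0.163). Acads (short chain) was at −0.04, Acad9, which also serves complex I assembly, at −0.02, and Acad11 at 0.04. Acad10 and Acad12, paralogues next to each other on chromosome 5, were at −0.16 and −0.14. Of the Acad10 transcript windows of 100 bases 10.4% also occur in Acad12, and 10.2% of those of Acad12 occur in Acad10. The 8 genes had a median of −0.15, and whether the classes differed from each other was not tested.

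Acadm was at 1509, 1321, 1178 and 1315 CPM in Sham and at 1213, 1110.3, 1035 and 1068 CPM in MR. MR replicate 1 lay above Sham replicate 3, and no other pair of libraries crossed. Acadvl shares 42.9% of its exon bases with Dvl2 on the opposite strand, and reads of the 2 genes can be told apart only if the counting used strand, on which the sources are silent.

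The hydratase, hydroxyacyl-CoA dehydrogenase and thiolase steps gave 6 genes, all negative, with a median of −0.21. Hadha and Hadhb encode the alpha and beta subunits of the mitochondrial trifunctional protein, which carries out the last 3 reactions on long chains. Hadha was at 1555, 1706, 1456 and 1685 CPM in Sham and at 1467, 1281, 1219 and 1301 CPM in MR. Only MR replicate 1 and Sham replicate 3 crossed, and narrowly. Its log2 difference was −0.28 (SE 0.08, adjusted p = 0.129). Hadhb was at 1728, 1692, 1515 and 1653 CPM in Sham and at 1515, 1384, 1349 and 1394 CPM in MR. Its lowest Sham value and its highest MR value agree to the precision printed, so the separation of its groups is nominal.

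The Hadhb log2 difference was −0.22 (SE 0.07, adjusted p = 0.17). The log2 ratio of Hadha to Hadhb, the pair that shares the short sequence printed above, was −0.04 ± 0.08 in Sham and −0.10 ± 0.04 in MR (exact permutation p = 0.257, adjusted 0.429). Of the Hadhb transcript windows 52.8% also occur in the pseudogene model Gm13910. Acaa2, the general mitochondrial thiolase, averaged 740.1 ± 114 CPM (Sham) and 595 ± 73.5 CPM (MR), a log2 difference of −0.32 (SE 0.12, adjusted p = 0.214). Hadh, the short-chain hydroxyacyl-CoA dehydrogenase, differed by −0.19, the short-chain hydratase Echs1 by −0.13 and the peroxisomal thiolase Acaa1a by −0.17, with adjusted p-values of 0.373, 0.479 and 0.286. Of the Acaa1a transcript windows 21.6% also occur in Acaa1b.

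Unsaturated fatty acids need auxiliary enzymes that move or reduce double bonds. All 3 of these genes were negative, at −0.28 for the dienoyl-CoA reductase Decr1, −0.24 for the isomerase Eci1 and −0.23 for the isomerase Eci2. Decr1 was at 507, 493, 407 and 496 CPM in Sham and at 443, 397, 354 and 377 CPM in MR. Sham replicate 3 stood apart from the other Sham libraries and was the only one that MR reached. The adjusted p-values were 0.163, 0.299 and 0.253.

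Electrons from the dehydrogenases pass through electron transfer flavoprotein, made of Etfa and Etfb, to its oxidoreductase Etfdh. Etfa was at 788, 639, 572 and 686 CPM in Sham and at 633, 614, 581 and 588 CPM in MR, with Sham replicate 3 under all of MR. The log2 differences were −0.15 for Etfa, −0.26 for Etfb and −0.12 for Etfdh, with adjusted p-values of 0.467, 0.701 and 0.527. Etfb was at 28.1 CPM in Sham replicate 1 and between 11.5 and 17.7 CPM in the other 7 libraries. It overlaps the model Gm45233, with 65.2% of its transcript windows in other genes, so its low level beside Etfa is uncertain.

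In storage and lipolysis, Plin5 (ENSMUSG00000011305, chr17:56111601-56117596 in GRCm38) had the lowest p of all 38 genes. It encodes perilipin 5, the lipid droplet coat protein of oxidative tissues that tethers droplets to mitochondria and restrains lipolysis. Plin5 was at 92.7, 82.0, 74.0 and 84.7 CPM in Sham and at 67.6, 59.5, 53.6 and 69.0 CPM in MR. The groups did not overlap, and the lowest library of each was replicate 3. The mean was 83.4 ± 7.73 CPM in Sham and 62.4 ± 7.21 CPM in MR, 1.33 times lower. For MR minus Sham the log2 value was −0.42 (SE 0.09), with an unadjusted p of 0.000414 and an adjusted p of 0.0641 by edgeR.

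With any single library left out the Plin5 difference ran from −0.47 to −0.35 and its adjusted p from 0.00915, without Sham replicate 3, to 0.183. Dgat2, which makes the last bond of triglyceride, averaged 347 ± 13.4 CPM (Sham) and 311 ± 24.2 CPM (MR), a log2 difference of −0.16 (adjusted p = 0.333). Pnpla2, the triglyceride lipase ATGL, differed by −0.15 (adjusted p = 0.415). The log2 ratio of Dgat2 to Pnpla2 was 0.36 ± 0.10 in Sham and 0.35 ± 0.20 in MR (exact permutation p = 0.914, adjusted 0.914).

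Pdk4 and Ucp3 are fuel switch genes. Pdk4 (ENSMUSG00000019577, chr6:5483351-5496309 in GRCm38) encodes a kinase that shuts off pyruvate dehydrogenase and so spares glucose when fatty acids are burned, and Ucp3 is a mitochondrial carrier that follows fatty acid supply. Pdk4 was at 416, 279, 293 and 244 CPM in Sham and at 555, 298, 126 and 603 CPM in MR. MR replicates 1 and 4 were above every Sham library and MR replicate 3 was under every Sham library, so the MR group enclosed the Sham group. The coefficient of variation was 24.3% in Sham and 56.7% in MR. On the log2 scale MR differed by 0.36 (SE 0.5, adjusted p = 0.788), with bounds of 0.08 and 0.66 over the fits that each left out 1 library.

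Ucp3 was at 63.2, 49.8, 47.7 and 60.5 CPM in Sham and at 74.2, 31.4, 29.7 and 60.4 CPM in MR. MR replicate 1 was the highest library of all, and MR replicates 2 and 3 were under every Sham library. Its coefficient of variation was 13.9% in Sham and 44.8% in MR, and its log2 difference was −0.17 (SE 0.33, adjusted p = 0.853). The mean therefore describes neither gene well in MR.

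Pdk4 was compared with 5 members that are also known to be induced in fasting through PPAR-alpha. Over all 8 libraries, on log2(CPM + 0.1), Pearson's r with Pdk4 was 0.748 for Ucp3, 0.482 for Acot1, 0.562 for Acot2, 0.355 for Plin5 and −0.0103 for Cpt1a. Spearman's rho was 0.548, 0.31, 0.214, 0.0476 and −0.262 in the same order. By exact permutation of the pairings the smallest p for r was 0.0334, for Ucp3, which became 0.167 after adjustment over the 5 relations. None of the 5 passed, and the adjusted p-values for rho ran from 0.774 to 0.935. Without the 2 libraries farthest from the median of Pdk4, MR replicates 3 and 4, r for Ucp3 was 0.55 (exact permutation p = 0.281) and for the others it lay between −0.128 and 0.185.

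With each library expressed as its deviation from its own group mean, r was 0.83 for Ucp3, 0.791 for Acot1, 0.816 for Acot2, 0.845 for Plin5 and 0.0775 for Cpt1a. Pairings were exchanged within groups only, which gives 576 arrangements. This form was an alternative to the comparison over all 8 libraries, and its adjustment covers its own 5 relations alone. The exact permutation p was 0.092, 0.0243, 0.0243, 0.0191 and 0.908, and after adjustment over the 5 relations 0.115 for Ucp3, 0.0405 for each of Acot1, Acot2 and Plin5 and 0.908 for Cpt1a. Spearman's rho on the same deviations was 0.81, 0.833, 0.762, 0.714 and −0.0952, and none passed after adjustment (0.156 to 0.866). With any library left out, r stayed between 0.70 and 0.868 for Acot1, 0.691 and 0.975 for Acot2, 0.734 and 0.97 for Plin5 and 0.792 and 0.905 for Ucp3. These left-out values are r alone, with no p. Pdk4 lay farthest from its group mean in MR replicate 3, at −1.41. Acot1, Acot2 and Plin5 thus varied with Pdk4 inside the groups by Pearson's r and not by the rank test, and Cpt1a showed neither. Other members were not compared with Pdk4 in this way. MR replicate 3, with the lowest Pdk4, was the lowest MR library in 29 of the 38 genes. Whether the covariation is particular to these genes was therefore not tested.

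**Figure D3:**
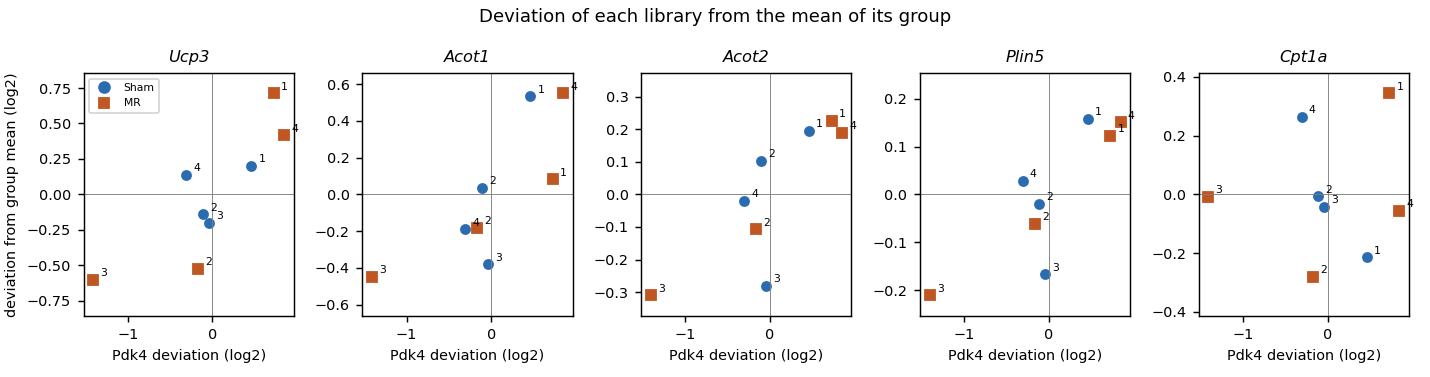
Deviation of each library from its group mean in log2(CPM + 0.1), for Pdk4 (x axis) against Ucp3, Acot1, Acot2, Plin5 and Cpt1a (y axes). Points are the 8 libraries, coloured by group. MR replicate 3 is at the lower left in the Ucp3, Acot1, Acot2 and Plin5 panels, and the Cpt1a panel shows no slope.

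The 24 members that are known PPAR-alpha targets had a median log2 difference of −0.22, with 23 negative and 17 lower at an unadjusted p under 0.05. The other 14 members had a median of −0.14, with 12 negative and 2 lower at that level. Of all genes tested, 49.6% were negative and 7.29% were lower at that level. Like the other lists, the list of targets was chosen with earlier results of these data known. The 6 members that respond most to fasting (Pdk4, Ucp3, Acot1, Acot2, Cpt1a and Plin5) had a median of −0.32. They hold both ends of the range of all 38, −0.69 for Acot1 and 0.36 for Pdk4. None of these genes passed the adjusted threshold, and a difference between the classes was not tested. By step, the medians were −0.18 for uptake, −0.19 for activation, −0.21 for the carnitine shuttle, −0.15 for the dehydrogenases, −0.21 for hydratase to thiolase, −0.24 for the auxiliary enzymes, −0.15 for electron transfer, −0.16 for storage and 0.09 for the pair of fuel switch genes, Pdk4 and Ucp3 (0.33 without MR replicate 3). The log2 ratio of Cd36 to Cpt1b, uptake against mitochondrial entry, was 7.73 ± 0.39 in Sham and 8.12 ± 0.28 in MR (exact permutation p = 0.171, adjusted 0.429). The difference of 0.38 became 0.20 without Sham replicate 4, 0.24 without MR replicate 2 and 0.50 without Sham replicate 1, and the limit on Cpt1b given above applies.

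The members did not vary independently between libraries. Sham replicate 3 was the lowest Sham library in 27 of the 38 genes and the highest in 0. MR replicate 3 was the lowest MR library in 29 genes, the highest in 0, and the lowest of all 8 libraries in 25. Sham replicate 1 was the highest Sham library in 23 genes, and MR replicate 1 the highest MR library in 26. Averaged over the 38 genes, the log2 deviation from the Sham mean was 0.11, 0.01, −0.15 and 0.03 for the Sham libraries and −0.05, −0.24, −0.37 and −0.14 for the MR libraries. MR replicate 1 thus lay above Sham replicate 3.

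**Figure D4:**
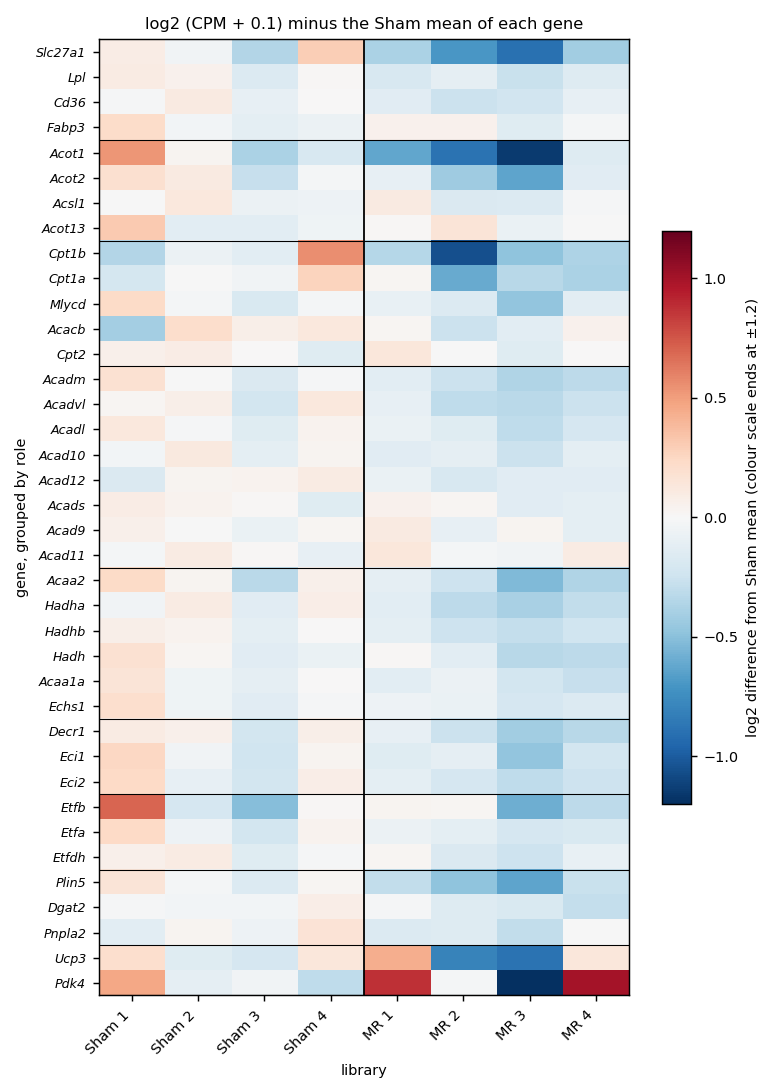
Log2(CPM + 0.1) minus the Sham mean for the 38 genes (lines, by role) in the 8 libraries (columns). MR replicates 2 and 3 are low in most genes, MR replicate 1 is nearer to Sham, and Sham replicate 3 is the lowest Sham library in 27 genes.

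Sham replicate 3 set most of the overlap between the groups. It was at or under the highest MR value in 32 of the 38 genes, where Sham replicates 1, 2 and 4 were in 11, 11 and 13. Without it, 19 members had all MR values under all remaining Sham values, where 8.8% of all genes had. Without Sham replicate 1, 2 or 4 the counts were 6, 3 and 3, against 6.73%, 5.22% and 4.67% of all genes.

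Cell type markers were also low or high in particular libraries. The summed CPM of 10 cardiomyocyte markers was 58759.8, 58861, 51169 and 57975 in Sham and 54125, 50884, 47754 and 52284 in MR, so it too was lowest in replicate 3 of each group. None of the 10 passed the threshold, 8 were negative, and their median was −0.06. At an unadjusted p under 0.05, 4 were lower and 0 higher, where 7.29% and 7.78% of all genes were. The summed CPM of 8 fibroblast markers was 947 to 1031 in Sham and 1115 to 1257 in MR, with 2 of the 8, the collagen genes Col1a1 and Col1a2, higher past the threshold. At the unadjusted level 5 of the 8 were higher and 0 lower. The 8 endothelial markers summed to 748 to 903 CPM in Sham and 884 to 920.4 CPM in MR, with 0 past the threshold by edgeR and 2 higher at an unadjusted p under 0.05. Neutrophil markers had the most negative median of the marker lists, −3.51 over the 6 of 8 that were tested, with 6 negative, 5 lower at an unadjusted p under 0.05 and 0 past the threshold. They summed to 37.6, 12.2, 8.24 and 67.5 CPM in Sham and to 3.11 to 5.96 CPM in MR, so Sham replicate 3 was nearest to MR here too. The 5 red blood cell markers were all positive, with a median of 0.41, sums of 309 to 559 CPM in Sham and 376 to 723 CPM in MR, and 0 past the threshold or at an unadjusted p under 0.05. The part of these markers in the members' differences was not tested. In whole tissue, fewer cells of a type and less RNA per cell cannot be told apart.

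Fat tissue also uses many of these genes. The 6 white adipocyte markers summed to 0.18 to 2.42 CPM in Sham and 0.121 to 5.1 CPM in MR, with Adipoq at most 0.703 and Plin1 at most 0.301 CPM in any library. Ucp1, the marker of brown fat, was at 0 in all Sham libraries and in 3 of the 4 MR libraries, and at 0.0465 CPM in MR replicate 3. The 5 brown adipocyte markers summed to 271 to 343 CPM in Sham and 271 to 330.5 CPM in MR, of which Cox8b, a cytochrome oxidase subunit that heart muscle also expresses, made up 266 to 338 and 267 to 326 CPM. Cpn2 was at 3.96 to 5.42 CPM over all libraries, with all MR values under all Sham values, as in 3.91% of all genes. Elovl3 and Otop1 were at most 0.139 and 0.0864 CPM. The 2 brown markers tested, Cox8b and Cpn2, had log2 differences between −0.23 and 0.03, and 0 had an unadjusted p under 0.05 by edgeR. The part of fat cells in the members' differences was not tested.

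The same 8 libraries gave these values for other energy pathways. The 16 enzymes of the TCA cycle had a median log2 difference of −0.11, with 16 negative, 3 lower at an unadjusted p under 0.05 and 0 past the threshold. The 37 nuclear-encoded respiratory chain subunits had a median of −0.11, with 35 negative and 5 at the unadjusted level, and their median was −0.02 without Sham replicate 1. The 19 genes of glycolysis and glucose uptake had a median of −0.10, with 16 negative and 2 at the unadjusted level. Against these medians stand −0.18 for the 38 members and 0.002 for all genes. Of all genes, 49.6% were negative and 7.29% were lower at the unadjusted level. A difference between the lists was not tested.

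Another 66 genes of the pathway were listed beside the members, and 64 of them were tested. Of these 0 rose, 1 fell and 63 did not pass, with 35 negative and a median of −0.02. At an unadjusted p under 0.05, 10 were lower and 4 higher, where 7.29% and 7.78% of all genes were. The gene that fell was Acss1, the mitochondrial synthetase that activates acetate. It was at 421, 446, 373 and 496 CPM in Sham and at 329, 303, 306 and 309 CPM in MR, with no overlap. The log2 difference was −0.48 (SE 0.09, adjusted p = 0.0327). It passed in 2 of the 8 fits with a library left out, those lacking Sham replicate 1 or 3, and its adjusted p was at most 0.114 in the others. Acsl6, a synthetase best known from brain, had a positive difference, 0.30 (adjusted p = 0.132), with 10.9 ± 0.846 CPM in Sham and 13.4 ± 1.13 CPM in MR. Acsm5, a medium-chain synthetase, was at −0.23 (adjusted p = 0.415).

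In oxidation, Ech1, an isomerase of the auxiliary pathway, averaged 1097 ± 150.5 CPM (Sham) and 815 ± 66.6 CPM (MR; log2 difference −0.43, adjusted p = 0.0729). Of the storage genes, the droplet protein Plin4 was at 267 ± 28.4 and 200.2 ± 23.2 CPM (−0.42, adjusted p = 0.0697) and the hormone-sensitive lipase Lipe at 32.1 ± 2.59 and 24.3 ± 3.02 CPM (−0.40, adjusted p = 0.0678), while Fitm2, which helps droplets bud, was at −0.22 (adjusted p = 0.238). In these 3, Ech1, Plin4 and Lipe, all MR values lay under all Sham values, as they did in Plin5 and in 3.91% of all genes. The carnitine genes Slc22a5, Slc25a20 and Crat, for the carnitine transporter, the carnitine-acylcarnitine carrier and carnitine acetyltransferase, were at −0.23, −0.24 and −0.16 with adjusted p-values of 0.214, 0.279 and 0.403.

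The other uptake genes had a median of −0.01. Angptl4, a secreted inhibitor of Lpl, averaged 4.49 ± 2.55 CPM (Sham) and 2.5 ± 1.32 CPM (MR; −0.83, adjusted p = 0.477), with Sham replicate 4 at 8.29 CPM. Fabp5, a fatty acid binding protein of other cell types such as endothelium, was at 26.5 ± 4.52 and 32.3 ± 1.91 CPM (0.28, adjusted p = 0.213). The transport protein Slc27a6 was at no more than 0.324 CPM in any library (0.64, adjusted p = 0.491). Of the 10 genes of fatty acid synthesis 3 were negative, where 49.6% of all genes were, their median was 0.05, and 0 passed the threshold by edgeR. At an unadjusted p under 0.05, 2 were higher, where 7.78% of all genes were. The 2 were the stearoyl-CoA desaturases Scd1 and Scd2, at 0.38 and 0.27 (adjusted p = 0.0766 and 0.102), in both of which all MR values were above all Sham values, as in 4.19% of all genes. The elongase Elovl5 was at 0.19 (adjusted p = 0.364).

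Of 14 regulators of lipid sensing and mitochondrial genes, 1 passed the threshold. Klf15, a transcription factor that promotes fatty acid use in heart and muscle, fell from 52.1 ± 6.12 to 37.1 ± 1.27 CPM. For MR minus Sham the log2 value was −0.49 (SE 0.08, adjusted p = 0.0261). It passed in 3 of the 8 fits with a library left out, and the highest adjusted p was 0.0921. Ppara itself averaged 50.6 ± 11.9 CPM (Sham) and 46.8 ± 9.33 CPM (MR; −0.11, adjusted p = 0.845). The coactivator Ppargc1b was at 13.1 ± 1.25 and 18.1 ± 3.1 CPM (0.47, adjusted p = 0.0842) and Ppargc1a at 129 ± 13.5 and 109 ± 8.02 CPM (−0.24, adjusted p = 0.202), and these related coactivators thus differed in sign without either passing. The estrogen-related receptor Esrrb was at −0.28 (adjusted p = 0.125).

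Several members, Pdk4 above all, follow feeding and the hour of the day. The list of 14 clock and clock output genes had 0 genes past the edgeR threshold, 7 lower and 2 higher at an unadjusted p under 0.05, 11 negative and a median of −0.17. Of all genes, 7.29% were lower and 7.78% higher at the unadjusted level, and 49.6% were negative. Cry2, Per3 and Per2, repressors of the clock, were at −0.20, −0.25 and −0.52, with adjusted p-values of 0.152, 0.194 and 0.226. Per2 was at 70.4 CPM in Sham replicate 4, 40.6 to 53.2 CPM in the other Sham libraries and 30.3 to 42.1 CPM in MR. The part of collection time or feeding in the members' differences was not tested.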

How the data were processed

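RNA from heart was sequenced in 8 libraries, 4 Sham and 4 MR. The values deposited by the authors are raw read counts per Ensembl gene, with no normalization. HISAT2 2.0.5 and the build mm10 are named in the submitters' processing notes, with the counting tool, annotation and strand not given in the sources used here. Totals ran from 42291511 to 58658094 counts, so that for most members counting error was smaller than the spread between libraries.

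A GENCODE annotation of GRCm38 supplied symbols, positions and exon lengths (32350 identifiers matched, 755 did not). Genes were filtered with filterByExpr (minimum count 10, minimum total 15) and scaled by TMM. The factors were 0.967 to 1.001 in Sham and 1.007 to 1.019 in MR, so this scaling lowered MR values relative to Sham. Testing used the quasi-likelihood F test of edgeR 4.0.16 in R 4.3.3, robust, with Benjamini-Hochberg adjustment over 16603 genes at 0.05. Of these 76 passed, 40 higher and 36 lower in MR. Ratios and correlations used log2(CPM + 0.1) and exact two-sided permutation tests. The smallest p was 0.0286 for ratios and 0.00174 within groups. The fitting procedure was tested on simulated data, with changes set larger than the members' median difference and a single spread for all genes. That run cannot tell whether changes as small as the members' would pass. Alternatives were RLE factors, library totals, no filter, DESeq2 1.42.0, limma-voom (limma 3.58.1) with and without quality weights, a floor of 1 CPM in 4 libraries, no robust moderation, a length trend removed, a pseudocount of 1 and leaving out each library.

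Every member is accounted for. Values in every library are given for 11 members named in the rule (Pdk4, Cpt1b, Cpt1a, Cd36, Lpl, Acsl1, Acot1, Acot2, Ucp3, Hadha and Acadm) and for the member of lowest p in each role. Of other lists, genes past the threshold and up to 3 of lowest p are named. Some genes that this rule names are not reported here. Hadhb, Ppara, Ppargc1a, Col1a1 and Col1a2 were singled out after their values were seen. The members, lists and rule were chosen with earlier results of these data known.

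Library titles carry numbers in a separate block for each group, so handling that follows these blocks and MR cannot be told apart.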

Additional observations from a re-analysis of the deposited data

Results flagged for a closer look

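In 86 groups of 4 values (the 38 members and 5 ratios in each group), 5 had a value whose gap to its nearest neighbour, as a share of the group's range, was above Dixon's critical value for 4 values. Chance flags about 1 in 20 groups. Acot13, a thioesterase, was at 242 CPM in Sham replicate 1, with the other Sham libraries at 178 to 189 CPM (gap 0.843 of the range). Decr1, the dienoyl-CoA reductase, was at 407 CPM in Sham replicate 3, with the others at 493 to 507 CPM (0.861). The log2 ratio of Cpt1b to Cpt1a was −2.41 in Sham replicate 4 (0.839), where the other Sham libraries were at −2.84 to −2.77. The log2 ratio of Acacb to Mlycd was 1.61 in Sham replicate 1 (0.883), against 2.39 to 2.50 in the others. The log2 ratio of Cd36 to Cpt1b was 8.53 in MR replicate 2 (0.878), against 7.94 to 8.01 in the others, and Cpt1b was lowest there, at 4.76 CPM.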

How the results depend on the processing

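No paired analysis was possible because the labels and columns carry no replicate numbers shared between the groups. Over 17 alternatives, 31 of the 38 members kept the sign of their log2 difference. The number of members past the threshold was 8 with no filter, 5 with DESeq2, 1 with limma-voom and quality weights, 1 with the length trend removed, and 0 to 7 with a library left out, with 7 without Sham replicate 3. In the same settings 936, 688, 429, 244 and 3 to 887 genes in all passed, against 76. The cause was not tested. Members lower at an unadjusted p under 0.05 were 11 with library totals alone and 9 to 23 with a library left out (9 without MR replicate 3, 11 without Sham replicate 4), against 19. Library totals alone made 75.7% of the genes past the threshold higher in MR, against 52.6%, and the members' median −0.13. Leaving out a library gave medians of −0.23 to −0.15.

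The sign turned in 7 members, of which Etfb (−0.26) and Ucp3 (−0.17) were the farthest from 0. With library totals alone Fabp3 was at 0.03, Cpt2 at 0.04, Acads at 0.00 and Acad9 at 0.03. With limma-voom and quality weights Fabp3 was at 0.02, Cpt2 at 0.01 and Acad9 at 0.01. With the length trend removed Fabp3 was at 0.03 and Cpt2 at 0.01, and with at least 1 CPM in 4 libraries Cpt2 was at 0.00. With a library left out the range was −0.06 to 0.05 for Fabp3, −0.03 to 0.12 for Acot13, −0.05 to 0.04 for Cpt2, −0.06 to 0.01 for Acad9, −0.42 to 0.02 for Etfb and −0.45 to 0.00 for Ucp3. The ratio differences ran from −0.07 to 0.22 for Acacb to Mlycd and from −0.06 to 0.08 for Dgat2 to Pnpla2. The pooled r with Pdk4 ran from −0.308 to 0.192 for Cpt1a and from −0.247 to 0.475 for Plin5. On deviations from the group means r was 0.791 for Acot1, 0.816 for Acot2, 0.845 for Plin5 and 0.0775 for Cpt1a, whose sign turned. Acot1, Acot2 and Plin5 then passed by Pearson's r and not by the rank test. The 4 libraries in each group limit precision, for Acad10 counting error does too, and what the labels leave out (tissue region, animals, strand) limits how the values can be read.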
